A study of Mus musculus with 4 samples.

Results

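The Ifitm family encodes interferon-induced transmembrane proteins. Of the 39186 genes in the table, 5 were taken by symbol, *Ifitm1*, *Ifitm2*, *Ifitm3*, *Ifitm6* and *Ifitm10*. They were measured by RNA sequencing in LSK cells, the lineage-negative, Sca-1-positive, c-Kit-positive cells that hold the blood stem and progenitor cells of the fetal liver. There were 2 *Pich*-KO and 2 *Pich*-WT samples, all of strain C57BL/6. Fetal livers came from E14.5 embryos, and the mutant mice carried a small TALEN-made deletion at the start of exon 2 of *Pich*, an X-linked gene listed in the table as *Ercc6l*. The deletion is in every cell of the embryo, not in blood cells alone. The lineage antibodies were against CD4, CD8, Gr-1, B220 and Ter119, with none against a macrophage or endothelial antigen. The labels number the samples of a group 1 and 2 and do not say whether each is a separate embryo, so the p-values measure only the spread between these samples. Within *Pich*-KO this spread may be technical, whereas the *Pich*-WT samples differed in Y-linked reads (given with the depth of the libraries) and so were not repeats of one source.

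IFITM proteins are small membrane proteins with a CD225 domain that sit in the plasma membrane and in endosomes, where they stiffen the membrane and block the fusion of incoming enveloped viruses. *Ifitm1*, *Ifitm2* and *Ifitm3* are classical interferon-stimulated genes, and IFITM3 in particular is also made by stem cells without interferon. *Ifitm6* is known from myeloid cells, *Ifitm5* from bone, and *Ifitm10* has not been known as an interferon-stimulated gene. Type I interferon signals through IFNAR1 and IFNAR2 and the kinases JAK1 and TYK2 to transcription factors, among them STAT2 and IRF9, that bind the interferon-stimulated response element (ISRE).

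In *Pich*-KO samples *Ifitm3* was 4.10-fold and *Ifitm1* 2.84-fold higher than in *Pich*-WT samples, whereas *Ifitm10* was 11.8-fold lower. *Ifitm2* and *Ifitm6* did not pass the test. All 5 members passed the filter of a mean of at least 1 normalized count, so 2 of 5 were called higher and 1 of 5 lower at an adjusted p under 0.05 by limma. Of the 32428 genes tested, 7.58% were called higher and 9.6% lower. By edgeR with TMM scaling on recovered reads the members' counts were also 2 and 1, where 18.6% of 16608 genes were called higher and 20.7% lower. A limma fit without a trend of the variance with the mean called 0 genes of the whole table, though 7377 had an unadjusted p under 0.05. With any sample left out limma has 1 residual degree of freedom and called no gene in the table (5757 to 8599 had an unadjusted p under 0.05), so these fits show only the folds: the log2 fold change stayed at 1.93 to 2.14 for *Ifitm3*, 1.06 to 1.86 for *Ifitm1* and -3.49 to -3.43 for *Ifitm10*. The limma calls thus depended on the variance trend.

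The members differ in their start regions, and their sequences are shown because they hold, or lack, the ISRE core. RefSeq start windows of GRCm38.p6, from 250 bases before to 50 after the start, were searched on both strands for the ISRE core, GAAA followed by any 2 bases and GAAA. Among 32851 such windows 3.44% held at least 1 match, and 0.225% held 2 or more. The *Ifitm3* window held 2 matches, 3 to 12 and 20 to 29 bases after the RefSeq start, in the first, non-coding part of exon 1. The *Ifitm2* window held 1 match, 46 to 37 bases before its RefSeq start. Both are printed from the first base of the shared core at chr7:141010716-141010742 and chr7:140955981-140956007, minus strand, with matches of the core in capitals.
Ifitm3 site: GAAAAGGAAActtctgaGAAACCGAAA
Ifitm2 site: GAAAAGGAAAttgctagagaaagggcg
Set side by side without gaps, the 27-base stretches differed at 11 positions, none of them in the first core and 7 of them in the second, which starts at position 18. Positions are counted from 1 at the 5′ end, with the *Ifitm3* base first. The changes in the second core are G18A, A19G, C22A, C23G, A25G, A26C and A27G. The *Ifitm2* stretch also holds GAAA, at positions 19 to 22, 1 base later than the first GAAA of the second *Ifitm3* core. The list of changes thus depends on setting the stretches side by side without gaps.

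The windows of *Ifitm1*, *Ifitm6* and *Ifitm10* held no match of this core. The windows of *Ifitm1* and *Ifitm6* do not reach their outermost annotated starts, 140967221 and 141017924. The bases around those starts were not searched. *Ifitm10* has 3 RefSeq starts in the table of windows, and none held one. The gamma-activated site (GAS) letters TTCNNNGAA, present in 8.3% of windows, occurred once in *Ifitm3*, 14 to 22 bases after the start and overlapping the second ISRE core, and once in *Ifitm6*, 10 to 2 bases before the start. A match is a description of letters and not evidence of a bound factor. The 100 bases upstream of the annotated starts of *Ifitm3* (chr7:141010771-141010870, minus strand) and *Ifitm1* (chr7:140967928-140968027, plus strand) are shown because these are the members that rose. The *Ifitm1* bases lie upstream of its RefSeq start, inside the first intron of the annotated transcript that begins furthest upstream.
Ifitm3 upstream: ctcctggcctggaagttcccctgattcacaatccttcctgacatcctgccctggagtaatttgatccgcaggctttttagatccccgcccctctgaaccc
Ifitm1 upstream: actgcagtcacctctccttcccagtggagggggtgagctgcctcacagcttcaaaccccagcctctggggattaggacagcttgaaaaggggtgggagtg
The longest stretch shared by the *Ifitm1* and *Ifitm3* windows was 8 bases, against 13 bases between *Ifitm2* and *Ifitm3*, where it includes the first core.

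*Ifitm3* (ENSMUSG00000025492, chromosome 7, 141009586 to 141010770, minus strand) is the member best known for blocking virus entry from endosomes. Its normalized count, the read count divided by a size factor of the sample, was 23810 and 20541 in *Pich*-KO samples 1 and 2 and 5647 and 5178 in *Pich*-WT samples 1 and 2. Both *Pich*-KO values lay far above both *Pich*-WT values, and within each group the samples were close. The means were 22175 ± 2312 and 5413 ± 332 (SD, n = 2 each). The log2 fold change was 2.03 (SE 0.09, 95% interval 1.82 to 2.25, adjusted p = 2.24e-05 by limma). These values rest on 5178 to 21830 reads per sample. Ranked by normalized count, *Ifitm3* was gene 47 and 58 in *Pich*-KO, against 435 and 458 in *Pich*-WT samples, which places it among the most abundant transcripts of the mutant libraries.

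*Ifitm1* (ENSMUSG00000025491, chromosome 7, 140967221 to 140969825, plus strand) acts mostly at the plasma membrane. It had normalized counts of 4261 and 7433 in *Pich*-KO, against 1821 and 2303 in *Pich*-WT samples. The groups did not overlap, but the *Pich*-KO samples were 1.74-fold apart, with sample 2 the higher. The means were 5847 ± 2243 and 2062 ± 341 (SD, n = 2 each). The log2 fold change was 1.46 (SE 0.24, 95% interval 0.91 to 2.01, adjusted p = 0.00431 by limma). It was 1.86 without *Pich*-KO sample 1 and 1.06 without *Pich*-KO sample 2.

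The order of the *Pich*-KO samples in *Ifitm1* was not that of most interferon signalling genes. Of the 5 interferon signalling genes called higher, 4 were higher in sample 1 than in sample 2, among them *Irf7*, a transcription factor of the interferon response, at 9487 and 4981. *Irf9* was higher in sample 2, at 1634 and 1862. The 4 granule protein and monocyte genes called higher were all higher in sample 2. Examples are *Prtn3*, a neutrophil protease, at 6835 and 15270, and *Mpo*, myeloperoxidase, at 54647 and 90492. They come from a list of 16 monocyte and neutrophil markers, of which 2 were called lower. Of those 2, *Ccr2* was at 1315 and 1358 and *Itgam* at 145 and 85 in *Pich*-KO samples 1 and 2. The uncalled *Csf3r* was also higher in sample 1, at 1724 and 1572. With 2 samples a group this is a description, and its part in the *Ifitm1* values was not tested.

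*Ifitm2* (ENSMUSG00000060591, chromosome 7, 140954837 to 140955987, minus strand), a close relative of *Ifitm3* that also restricts virus entry, had normalized counts of 2281 and 2979 in *Pich*-KO, against 2341 and 2145 in *Pich*-WT samples. *Pich*-KO sample 1 lay between the *Pich*-WT samples, so the groups overlapped. The log2 fold change was 0.22 (SE 0.14, 95% interval -0.11 to 0.54, adjusted p = 0.376 by limma). The upper bound of this interval lies below the lower bounds for *Ifitm1* and *Ifitm3*.

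*Ifitm6* (ENSMUSG00000059108, chromosome 7, 141015699 to 141017924, minus strand) had normalized counts of 324 and 333 in *Pich*-KO, against 334 and 239 in *Pich*-WT samples. *Pich*-WT sample 2 was the lowest and the other values were nearly alike, so the groups overlapped. The log2 fold change was 0.22 (SE 0.21, 95% interval -0.27 to 0.70, adjusted p = 0.565 by limma). Without *Pich*-WT sample 2 it was -0.023, so its sign rested on that library.

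*Ifitm10* (ENSMUSG00000045777, chromosome 7, 142325837 to 142373753, minus strand) lies apart from the cluster and is not known to be induced by interferon. It had normalized counts of 13.1 and 12.5 in *Pich*-KO, against 154 and 148 in *Pich*-WT samples. The groups did not overlap, and the *Pich*-KO values stood on only 12 and 11 reads, against 197 and 148 reads in *Pich*-WT. The log2 fold change was -3.46 (SE 0.32, 95% interval -4.19 to -2.73, adjusted p = 0.000302 by limma).

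**Figure D1:**
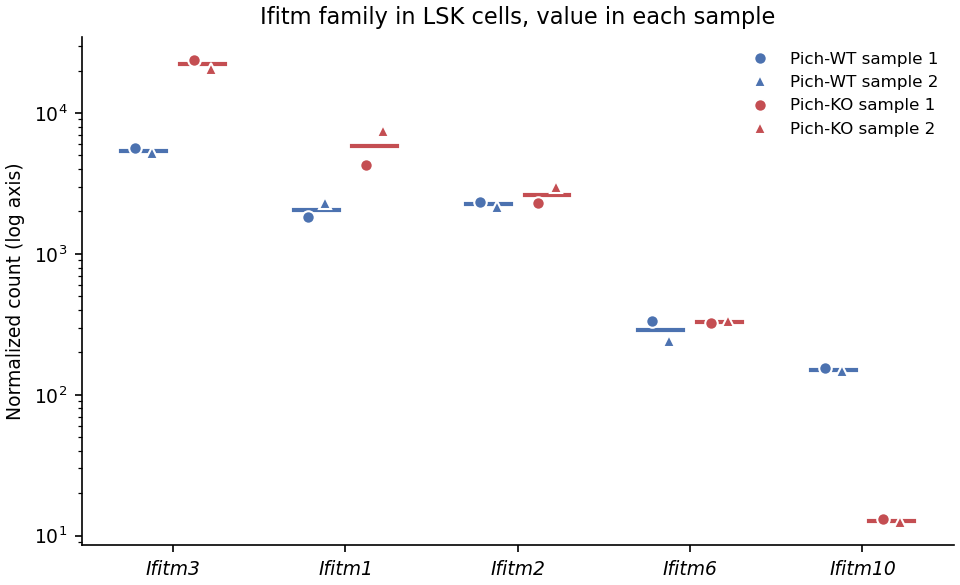
Normalized counts (log axis) of the 5 members in each of the 4 samples, with circles for sample 1, triangles for sample 2 and a horizontal bar at the mean of each group of 2. *Ifitm3* sits at 20541 to 23810 in *Pich*-KO against 5178 to 5647 in *Pich*-WT, *Ifitm10* at 12.5 to 13.1 against 148 to 154, and the groups overlap for *Ifitm2* and *Ifitm6*.

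Groups that do not overlap are common in a table of 2 against 2: 28.9% of the genes tested lay wholly higher in *Pich*-KO and 27.2% wholly lower, compared with 2 and 1 of the 5 members. The libraries held 14703215 to 20933919 reads on genes. *Pich*-WT sample 2 had no read on 4 Y-linked genes, and the other samples had 1607 to 2848. Without it, the log2 fold changes were 1.97 for *Ifitm3*, 1.63 for *Ifitm1*, 0.15 for *Ifitm2* and -3.49 for *Ifitm10*, in limma fits that leave 1 residual degree of freedom and called no gene at all. Replicate libraries were more variable than counting error alone would give: chi-square over its degrees of freedom was 14.7 for *Pich*-KO and 8.18 for *Pich*-WT. *Ercc6l* itself was higher in *Pich*-KO, at 1142 and 1232 against 772 and 661 normalized counts. A small deletion leaves most of the transcript to be counted, so these values do not check the genotype.

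Divided by the gene length in the table, which sums the exons of all transcripts, the members can be compared with each other. Per kilobase, *Ifitm3* was the most abundant member in every sample and *Ifitm10* the least. In *Pich*-WT the mean levels per kilobase were 7983 ± 489 for *Ifitm3*, 3425 ± 212 for *Ifitm2*, 1885 ± 312 for *Ifitm1*, 316 ± 74.0 for *Ifitm6* and 31.5 ± 0.880 for *Ifitm10* (SD, n = 2). In this order no neighbours overlapped. In *Pich*-KO *Ifitm3* was at 32707 ± 3410, *Ifitm1* at 5345 ± 2050, *Ifitm2* at 4015 ± 754, *Ifitm6* at 363 ± 7.13 and *Ifitm10* at 2.67 ± 0.0863 (SD, n = 2). *Ifitm1* and *Ifitm2* thus traded places, but their ranges in *Pich*-KO overlapped, at 3895 to 6794 and 3482 to 4549.

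The summed level of the family per kilobase was 42856 and 42010 in *Pich*-KO, against 13969 and 13312 in *Pich*-WT samples. The groups lay apart and each was narrow. The means were 42433 ± 598 and 13641 ± 465 (SD, n = 2 each), a ratio of 3.11. An exact two-sided permutation test over 4 samples has 6 arrangements and cannot give a p below 0.333, which is the value here.

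Within the sum, *Ifitm3* made up 81.9% and 72.1% in *Pich*-KO, against 59.6% and 57.4% in *Pich*-WT samples. *Ifitm2* made up 8.12% and 10.8% in *Pich*-KO, against 25.6% and 24.6% in *Pich*-WT samples. The *Ifitm2* share was thus lower in both mutant samples although its own level did not pass the test. The share of *Ifitm1* was 9.09% and 16.2% against 11.9% and 15.8%, with overlapping groups (exact permutation p = 1). *Ifitm6* ranged from 0.835% to 0.876% in *Pich*-KO and from 1.98% to 2.64% in *Pich*-WT samples. For *Ifitm2*, *Ifitm3*, *Ifitm6* and *Ifitm10* the exact permutation p was 0.333, the smallest possible.

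**Figure D2:**
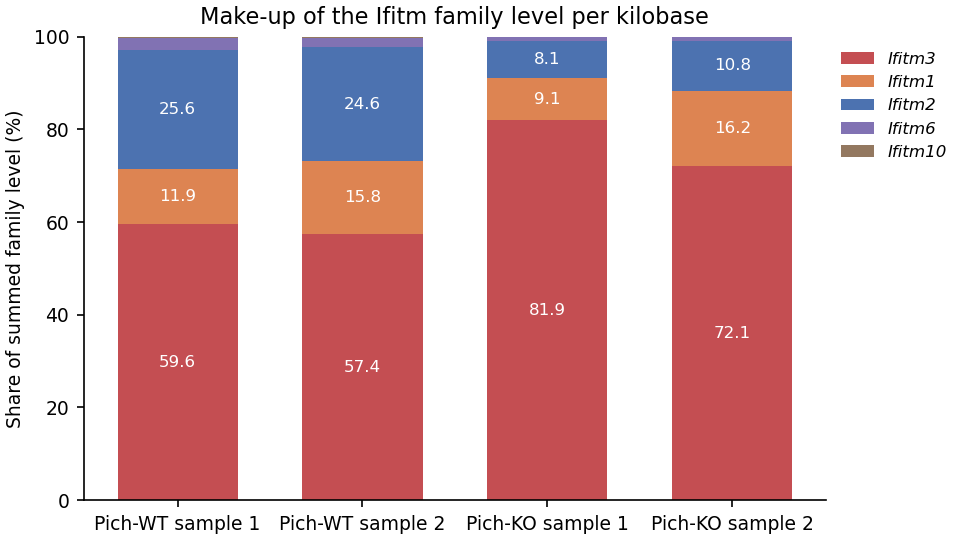
Share of each member in the summed family level per kilobase (%), as 1 stacked bar per sample. *Ifitm3* fills 57.4% to 59.6% of the *Pich*-WT bars and 72.1% to 81.9% of the *Pich*-KO bars, and *Ifitm10*, at 0.232% or less, is too small to see.

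Ratios of members within a sample do not depend on how samples were scaled. The ratio of *Ifitm3* to *Ifitm2* normalized counts was 10.4 and 6.89 in *Pich*-KO and 2.41 in each *Pich*-WT sample. *Ifitm3* over *Ifitm6* was 73.5 and 61.7 against 16.9 and 21.7. *Ifitm1* over *Ifitm2* was 1.87 and 2.49 against 0.778 and 1.07. In each of these the groups lay apart (exact permutation p = 0.333, Benjamini-Hochberg adjusted 0.4 over 6 ratios). *Ifitm3* over *Ifitm1* was 5.59 and 2.76 against 3.10 and 2.25, and the groups overlapped (exact permutation p = 0.667).

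Other genes of the CD225 family were at low levels. There were 9 in the table, of which 8 passed the filter, and 0 were called higher and 2 lower by limma, beside the 7.58% and 9.6% of all genes. *Prrt1*, a synaptic receptor partner, had 5 and 0 reads in *Pich*-KO against 26 and 28 in *Pich*-WT samples (adjusted p = 0.0404 by limma). *Syndig1l*, a relative of a synapse differentiation gene, had 1 read in each *Pich*-KO sample against 19 and 28 (adjusted p = 0.00899 by limma). At such counts the size of the fold change depends on the pseudocount.

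*Tmem91* had normalized counts of 38.2 and 37.5 against 71.1 and 85 (log2 fold change -1.02, adjusted p = 0.0562 by limma). The bone gene *Ifitm5*, which lies beside *Ifitm2*, was counted with 8 and 2 reads in the *Pich*-KO libraries and 7 reads in each *Pich*-WT library. *Ifitm7*, on chromosome 16, had 6 and 24 against 5 and 18 reads, with sample 2 the higher in each group. *Prrt2*, *Syndig1* and *Tusc5* had at most 5 reads in any sample and were not called, and *Tmem233* was below the filter.

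**Figure D3:**
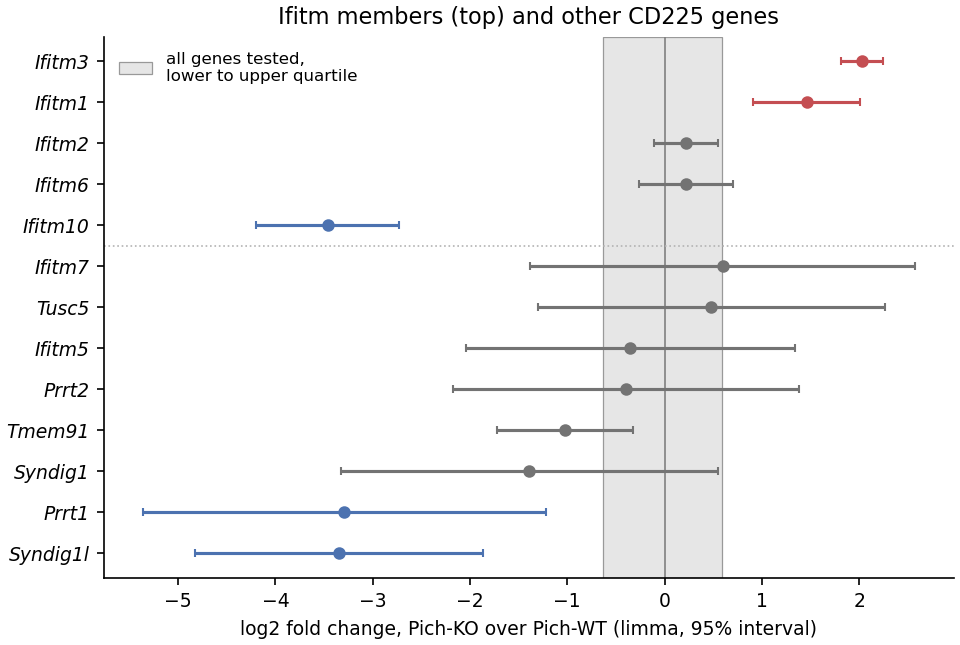
log2 fold change (*Pich*-KO over *Pich*-WT) with its 95% interval from limma for the 5 members, above the dotted line, and 8 other CD225 genes, in red where called higher, blue where called lower and grey otherwise. The shaded band runs from the lower to the upper quartile of all genes tested, -0.64 to 0.59, and *Ifitm1*, *Ifitm3* and *Ifitm10* lie outside it with their whole intervals.

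*Ifitm1*, *Ifitm2*, *Ifitm3* and *Ifitm6* form a cluster on chromosome 7 with 61.9 kb between the first and the last start. No other tested gene starts inside it. Among the 8 tested genes on each side, 2 of 16 were called higher and 3 lower by limma, beside 7.58% and 9.6% of all genes, with a median log2 fold change of -0.27, beside 0.02 for all genes tested. *Psmd13*, a proteasome subunit, rose by 0.38 and the pseudogene *Gm15542* by 0.77 on the log2 scale. *Gm15542* overlaps *Psmd13*, so their reads may not be independent.

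On the other side *Sigirr*, an inhibitor of interleukin-1 and Toll-like receptor signalling, fell by 0.57, *Ptdss2*, a phosphatidylserine synthase, by 0.43 and *Hras*, a small GTPase, by 2.37 on the log2 scale. No log2 fold change among the 16 was above 0.77, which is that of *Gm15542*. *Irf7* lies further along, 256 kb from the *Ifitm3* start, and its log2 fold change was 2.22 (SE 0.26, adjusted p = 0.000916 by limma).

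**Figure D4:**
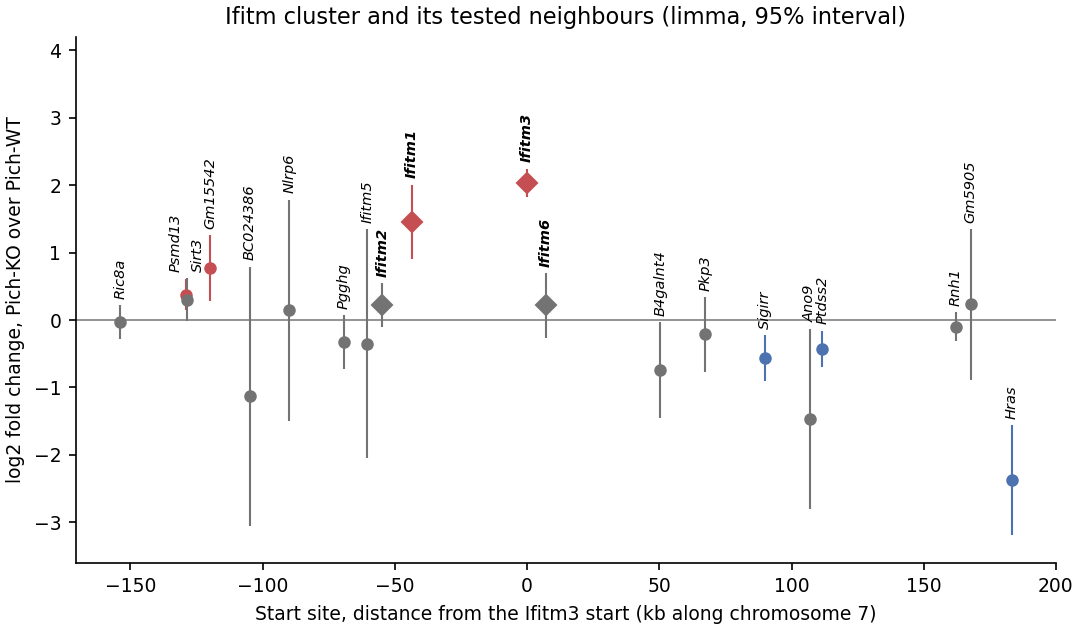
log2 fold change (*Pich*-KO over *Pich*-WT) with its 95% interval from limma against the distance of each start from the *Ifitm3* start in kb, for the 4 clustered members (diamonds) and 16 neighbours (circles), in red where called higher and blue where called lower. The highest points are *Ifitm3* at 2.03 and *Ifitm1* at 1.46, and the lowest is *Hras* at -2.37.

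*Ifitm10* has a different neighbourhood. The next gene upstream on the same strand is *Ctsd*, which encodes the lysosomal protease cathepsin D. It was looked up after its values were seen. *Ctsd* normalized counts were 2651 and 2621 in *Pich*-KO, against 13560 and 14187 in *Pich*-WT samples, a log2 fold change of -2.39 (SE 0.08, adjusted p = 7.43e-06 by limma). Their annotated ends are 2157 bases apart. The ratio of *Ifitm10* to *Ctsd* was 0.00494 and 0.00477 in *Pich*-KO, against 0.0114 and 0.0104 in *Pich*-WT samples, so it was lower in both *Pich*-KO samples (exact permutation p = 0.333, adjusted 0.4).

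GENCODE M21 lists *Gm49369* (chromosome 7, 142371096 to 142382667, minus strand), which spans the *Ifitm10* start and part of *Ctsd*, and *Gm45717* (140949222 to 140955937, minus strand), which overlaps *Ifitm2*. Neither symbol is among the 39186 genes of the table, so neither was analysed here. Reads of such a gene and of the member it covers cannot be told apart where they overlap.

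The clustered members are similar in sequence to each other and to other annotated genes. In the longest GENCODE M21 transcripts, *Ifitm2* and *Ifitm3* were 84.9% identical over 358 aligned bases, with 69 bases as the longest stretch in common, and *Ifitm1* and *Ifitm3* shared a stretch of 64 bases. Of all 30-base words in its transcripts, *Ifitm2* shared 56.1% with transcripts of other genes, *Ifitm3* 21.3%, *Ifitm1* 12.3%, *Ifitm10* 4.37% and *Ifitm6* 0%. For *Ifitm1*, *Ifitm2* and *Ifitm10* most of this was not shared between members. *Ifitm1* shared 10% of its words with the pseudogene *Gm7676*, against 3.44% with *Ifitm3* and 1.02% with *Ifitm2*. *Ifitm3* shared 6.16% of its words with *Ifitm2* and 5.7% with *Ifitm1*. *Ifitm2* shared 38.2% of its words with the overlapping *Gm45717* but 6.39% with *Ifitm3* and 1.76% with *Ifitm1*, and *Ifitm10* shared 3.93% with the overlapping *Gm49369*. By this measure the *Ifitm2* level is the least certain of the 5. The 5 processed pseudogenes in the table that share words with the cluster held at most 10 reads in any sample.

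The genes with profiles most like each member over the 4 samples were found among 10544 genes with a mean of at least 100 normalized counts, by Euclidean distance between centred log2 values. Nearest to *Ifitm3* were *Apaf1*, which starts the apoptosome, at 861 and 784 against 219 and 208 normalized counts (distance 0.114), the DNA repair gene *Brca1* (distance 0.130) and *Cd69*, an early activation antigen (distance 0.133). All 3 were thus about as much higher in *Pich*-KO as *Ifitm3*, with little spread within groups.

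Nearest to *Ifitm1* were the non-coding *1110038B12Rik* (distance 0.127), the small nucleolar RNA host gene *Snhg4* (distance 0.148) and the histone gene *Hist3h2a* (distance 0.217). They had the same gap between the *Pich*-KO samples, for example 431 and 692 normalized counts of *1110038B12Rik* against 163 and 219 in *Pich*-WT. *Ifitm2* had *Pfdn1*, *B230118H07Rik* and *Asb6* as nearest genes (distances 0.0266 to 0.0330), and *Ifitm6* had *Mical3*, *Mpc1* and *Csf1* (distances 0.0140 to 0.0845). None of these 6 passed the test.

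The interferon pathway upstream of the family was described with a list of 11 genes, all tested. By limma 5 were called higher and 2 lower, beside 7.58% and 9.6% of all genes, with a median log2 fold change of 0.29, beside 0.02 for all genes. The receptor chain *Ifnar1* fell by 0.56 and the kinase *Jak1* by 0.75 on the log2 scale, whereas *Ifnar2* and *Tyk2* did not pass the test, at -0.27 and -0.25. The transcription factor genes *Stat2* and *Irf9* rose by 1.07 and 0.75. *Usp18*, a brake on the receptor that is itself induced by interferon, rose most, by 4.25, from 230 and 245 normalized counts to 6690 and 3071.

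Among 9 other genes that act against virus entry or release, 4 were called higher and 2 lower by limma, beside 7.58% and 9.6% of all genes, with a median log2 fold change of 0.14 beside 0.02. *Rsad2* (viperin) rose by 2.38, *Bst2* (tetherin, which holds budding virus at the surface) by 2.16, *Serinc3* by 2.02 and *Ly6e* by 0.48 on the log2 scale. *March8*, a ubiquitin ligase for membrane proteins, fell by 1.21 and *Serinc5* by 1.07. *Cnp*, *Ncoa7* and *Ch25h* did not pass the test.

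Of 15 known partners and modifying enzymes of IFITM proteins, 2 were called higher and 5 lower by limma, beside the 7.58% and 9.6% of all genes, with a median log2 fold change of 0.05. *Prmt1*, a methyltransferase, rose by 1.01 and *Vapa*, a cholesterol transport partner, by 0.35 on the log2 scale. *Fyn*, a kinase that phosphorylates IFITM3, fell by 2.52, the palmitoyltransferase *Zdhhc20* by 0.65, the endocytic adaptor *Ap2m1* by 0.57, and the tetraspanins *Cd9* and *Cd81* by 0.99 and 0.50. The ubiquitin ligase *Nedd4*, which marks IFITM3 for breakdown, did not pass the test, at 0.43.

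**Figure D5:**
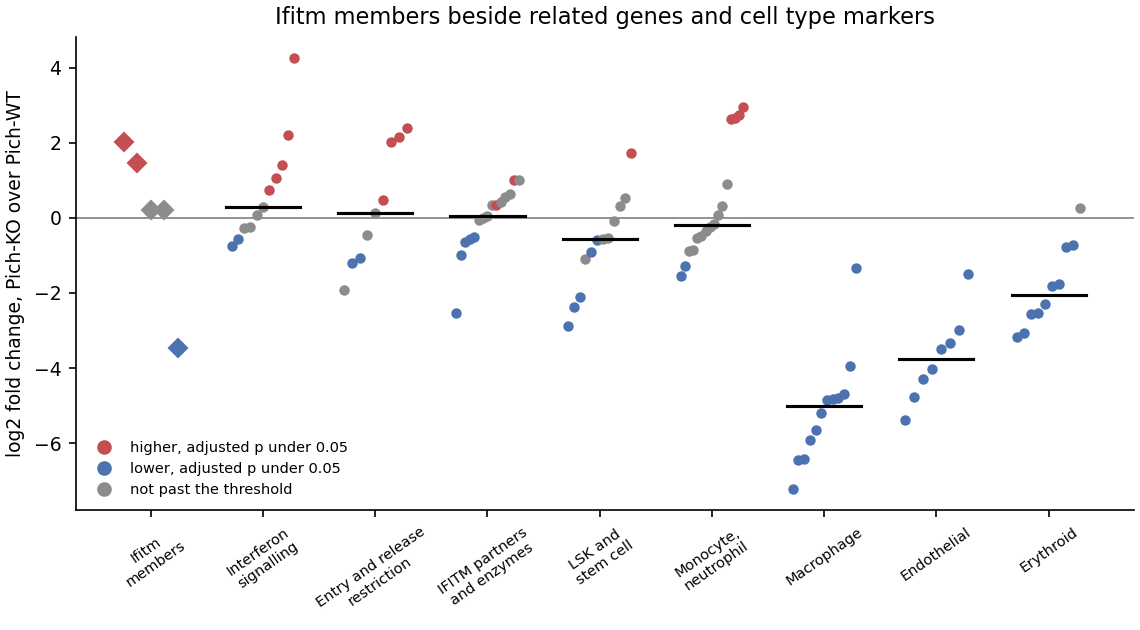
log2 fold change (*Pich*-KO over *Pich*-WT, limma) of the 5 members (diamonds) and of every tested gene of 8 lists (circles), in red where called higher, blue where called lower and grey otherwise, with a black bar at the median of each list. Macrophage genes have a median of -5.02 and endothelial genes of -3.75, while the median of interferon signalling genes is 0.29.

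Markers of several cell types also differed between the groups. Both groups held the markers that define LSK cells, with *Kit* at 4447 and 2773 normalized counts in *Pich*-KO, against 2328 and 2513 in *Pich*-WT samples. *Ly6a*, which encodes Sca-1 and is itself induced by interferon, was at 3586 and 2978 against 901 and 1061 (log2 fold change 1.74). Of 12 LSK and stem cell markers 1 was called higher and 5 lower by limma, beside 7.58% and 9.6% of all genes. The lowest was *Procr*, a stem cell marker, at -2.88.

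All 12 macrophage markers were called lower, with a summed level of 7265 to 8430 normalized counts in *Pich*-KO and 56525 to 58084 in *Pich*-WT samples, and all 8 endothelial markers, at 1755 to 3127 against 23170 to 33480. *Csf1r*, the receptor of a macrophage growth factor, made up most of the *Pich*-KO macrophage sums, at 7268 and 6111 against 16306 and 17259, a log2 fold change of -1.33, and those of the other 11 macrophage markers ran from -7.22 to -3.94. Of 10 erythroid markers 9 were lower, at 34406 to 36800 against 140273 to 198896. Of all genes tested, 9.6% were called lower. None of the macrophage, endothelial and erythroid markers was at 0 in every sample, and only *Vsig4*, a macrophage marker, had at most 3 reads in each *Pich*-KO sample. The part of these markers' cells in the lower *Ifitm10* values was not tested. In sorted bulk samples, fewer cells of a type and less RNA per cell cannot be told apart.

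Of 16 monocyte and neutrophil markers 4 were called higher and 2 lower, beside 7.58% and 9.6% of all genes. The sums over the 16 markers were 68881 to 127867 in *Pich*-KO and 23524 to 25074 in *Pich*-WT samples. *Mpo* made up most of the *Pich*-KO sums. *Ly6g*, which defines mature neutrophils, had at most 3 reads in any sample. Other neutrophil genes of the list were well counted. *S100a8* had 510 and 3447 reads in *Pich*-KO against 1501 and 1215 in *Pich*-WT samples, and *Ngp* 238 and 1073 against 966 and 826. *Retnlg* was low, at 2 and 20 against 21 and 14 reads. Hepatoblast markers were lower for 5 of 8 genes and B, T and NK cell markers for 2 of 10, beside 9.6% of all genes. The sums were 2519 to 3083 against 4385 to 4945 for hepatoblast markers. For B, T and NK cell markers they were 1079 to 1374 against 1565 to 1628. The part of cells with the monocyte and neutrophil markers, whose sums were higher, in the higher *Ifitm1* and *Ifitm3* values was not tested. Nor was that of hepatoblasts and B, T and NK cells, whose marker sums were lower.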

How the data were processed

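The gene table deposited by the authors covers sorted fetal liver LSK cells, with 2 samples per genotype. Its sample columns are a signal that the authors made by dividing read counts on genes by one size factor per sample. Whole reads were recovered for 100% of values (tolerance 0.001 reads). The table also holds the authors' own group means, log2 fold changes and p-values, which were not used. The submitters' processing notes name Bowtie 0.12.2 and the builds mm8 and mm9 without a role. The table's coordinates are those of GRCm38: 97.8% of the 39131 genes that GENCODE M21 also lists match it in both start and end, all 5 members among them. The counter, its strand setting and its handling of reads with several matches are not given in the sources used here.

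Members and gene lists were chosen with earlier results of these data known. The test was limma 3.58.1 (R 4.3.3) on log2(value + 1), with a prior variance following the mean, over 32428 genes with a mean of at least 1, Benjamini-Hochberg adjusted and called at an adjusted p under 0.05. Fold changes are on the log2(value + 1) scale and so come out too small for low genes. Folds given as ratios are ratios of group means. Shares and ratios were compared by exact two-sided permutation. The procedure was tested on simulated data. Genes named are the members, the other CD225 genes, called neighbours among 8 tested genes per side and 3 nearest profiles per clustered member. For some lists the called genes with the largest and smallest change were named, with defining markers. For others, among them the endothelial, erythroid and hepatoblast lists, they were not. *Ctsd*, *Irf7* as a neighbour and further list genes were named after their values were seen, and 1 list gene is not reported here by name. Sequences are from RefSeq windows of GRCm38.p6. Alternatives were another pseudocount (0.1), no filter, at least 10 counts in every sample, equal totals, no variance trend, a replicate block, edgeR 4.0.16 with TMM or upper-quartile scaling, DESeq2 1.42.0, and leaving out each sample.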

Additional observations from a re-analysis of the deposited data

How the results depend on the processing

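Under 8 of the 9 alternatives that keep all samples (pseudocount of 0.1, no filter, at least 10 counts in every sample, equal totals, replicate block, edgeR with either scaling, DESeq2), *Ifitm3*, *Ifitm1* and *Ifitm10* kept their direction and their side of the threshold and *Ifitm2* and *Ifitm6* stayed uncalled, with log2 fold changes of 1.97 to 2.07, 1.40 to 1.53, -3.56 to -3.46, 0.16 to 0.26 and 0.16 to 0.23. Without a variance trend limma called 0 genes of the whole table (7377 had an unadjusted p under 0.05), so 0 members were called higher and 0 lower, at log2 fold changes of 2.03 for *Ifitm3* (adjusted p = 0.0852), 1.46 for *Ifitm1* (0.173) and -3.46 for *Ifitm10* (0.0852), and every list count was 0. With any of the 4 samples left out, limma has 1 residual degree of freedom, assumes that the lone sample varies like the other group, and called 0 genes (5757 to 8599 had an unadjusted p under 0.05), hence 0 members in either direction. The log2 fold change then ranged from 1.93 to 2.14 for *Ifitm3*, 1.06 to 1.86 for *Ifitm1* (lowest without *Pich*-KO sample 2), -3.49 to -3.43 for *Ifitm10*, 0.03 to 0.41 for *Ifitm2* and -0.023 to 0.46 for *Ifitm6*, which turned to -0.023 without *Pich*-WT sample 2. Samples with the same number share no stated origin, and their deviations correlated at 0.0133 over 10544 genes. With the replicate block limma called 6996 genes in place of 5572, with adjusted p-values of 1.09e-26 for *Ifitm3*, 2.03e-15 for *Ifitm1*, 0.282 for *Ifitm2*, 0.571 for *Ifitm6* and 1.38e-10 for *Ifitm10* and log2 fold changes as in the fit without it. The block fit also leaves 1 residual degree of freedom, so its p-values lean on the variance shared across genes. edgeR with TMM called 4 IFITM partners higher in place of 2 and 3 other CD225 genes lower in place of 2. Without division by length the share of *Ifitm3* was 71.6% in *Pich*-KO and 53.3% in *Pich*-WT. The 11 and 12 reads of *Ifitm10* in *Pich*-KO limit the precision of its fold.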
